A study of Mus musculus with 16 samples.

Results

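The genes described here are 10 enzymes and regulators of fatty acid and triglyceride synthesis, measured in mouse skeletal muscle. They were chosen by name: Srebf1, Acaca, Acacb, Fasn, Elovl6, Scd1, Scd2, Gpam, Dgat1 and Dgat2. They are 10 of the 28967 genes tested, and 13 of the 55681 probes on the array read them. Total RNA from dissected muscle of male mice aged 21 to 23 weeks was hybridised to 16 one-colour Agilent arrays, 4 per group, each group made of 4 biological replicates. CB1KO_HFHS mice lacked the cannabinoid receptor gene Cnr1 in skeletal muscle (genotype Skm-CB1R-/-) and ate a diet high in fat and sugar, with 49.2% of its kJ as fat and 32.2% as sugar. WT_HFHS littermates (Skm-CB1R+/+) ate the same diet. CB1KO_SD and WT_SD mice of these genotypes ate a standard diet with 16.7% of its kJ as fat and 12.4% as sugar. Feeding lasted 15 weeks.

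The knockout pairs a loxP-flanked Cnr1 with a Cre recombinase under the ACTA1 promoter, which is active in muscle fibres, so cells of other types within the muscle keep the receptor. The breeding note lists mice of both genotypes as Cre-positive, and it also mentions assignment to vehicle or S961, an insulin receptor antagonist, without tying an agent to any array. The titles, which were used, and the diet tag disagree for the CB1KO_SD arrays and for those of WT_HFHS. Were the tag right, each genotype would have had a single diet, and genotype and diet could not be told apart. The muscle that was dissected is not named. By the titles, each diet had a slide of its own, and within a slide each genotype had a row of its own. Diet and slide therefore cannot be told apart, nor can genotype and slide row. The replicate number of an array was also its column on the slide, so replicate number and slide column cannot be told apart either.

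Muscle takes up most of its fatty acids from the blood, and its own synthesis is small beside that of liver and fat. Acetyl-CoA carboxylase makes malonyl-CoA from acetyl-CoA, fatty acid synthase builds palmitate from it, and elongases and desaturases turn palmitate into longer and unsaturated chains. Acyltransferases then join the chains to glycerol to form triglyceride. The transcription factor SREBP-1, the product of Srebf1, switches on most of these genes in liver in response to insulin. Adipocytes, which lie between muscle fibres, hold the same enzymes at high levels.

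Values below are log2 intensities relative to the 75th percentile of the same array, so 0 is the level of that percentile, and the level of one gene is not set against that of another. All 10 genes stood well above background on all 16 arrays. The arrays had 56.7% to 75.04% of their probes well above background. The spread of log2 signal over the spots of an array, as its SD, was 3.97 for CB1KO_HFHS replicate 1 and 2.89 for CB1KO_SD replicate 2, and lay between 3.14 and 3.69 for the remaining arrays. The Cnr1 probe, whose place relative to the deleted part was not established, stood above background on 14 arrays and differed by -0.14 ± 0.46 on HFHS and -0.24 ± 0.46 on SD (CB1KO minus WT, SE).

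Of the 10 genes, only Srebf1 passed the test of CB1KO against WT averaged over both diets. Its level was lower in CB1KO muscle, by 0.57 on the log2 scale. Elovl6 and Acacb had their CB1KO and WT arrays apart on 1 diet each, Elovl6 on SD and Acacb on HFHS, without passing the adjusted test. The other genes overlapped between genotypes on each diet. Averaged over diets, 9 of the 10 differences lay below 0, with a median of -0.28, beside a median of -0.13 over all genes tested.

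Srebf1 has several transcription starts, which give the SREBP-1a and SREBP-1c forms, and the probe is annotated to the gene without naming a form. RefSeq's promoter table on GRCm38.p6 (250 bases before each start to 50 after it) held 3 windows for Srebf1, all on the minus strand of chromosome 11. They are printed because Srebf1 is the gene that passed the test. They were searched on both strands for a sterol regulatory element (TCACNCCAC), for the CCAAT box that the factor NF-Y binds (CCAAT, or ATTGG on the other strand) and for an E-box (CACGTG). Capitals mark CCAAT matches.
Srebf1, chr11:60210422-60210721, minus strand: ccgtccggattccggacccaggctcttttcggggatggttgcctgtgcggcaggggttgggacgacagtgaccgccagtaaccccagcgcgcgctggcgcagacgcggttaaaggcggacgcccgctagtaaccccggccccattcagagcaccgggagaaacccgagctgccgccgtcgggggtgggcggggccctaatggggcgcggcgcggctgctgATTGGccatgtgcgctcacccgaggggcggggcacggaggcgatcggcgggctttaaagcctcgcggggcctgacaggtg
Srebf1, chr11:60220578-60220877, minus strand: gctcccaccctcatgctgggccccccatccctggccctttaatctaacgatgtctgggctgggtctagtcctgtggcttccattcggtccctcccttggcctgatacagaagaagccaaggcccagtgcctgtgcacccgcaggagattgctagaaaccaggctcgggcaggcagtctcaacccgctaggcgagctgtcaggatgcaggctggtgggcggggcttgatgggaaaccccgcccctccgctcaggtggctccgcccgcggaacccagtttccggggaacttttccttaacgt
Srebf1, chr11:60222532-60222831, minus strand: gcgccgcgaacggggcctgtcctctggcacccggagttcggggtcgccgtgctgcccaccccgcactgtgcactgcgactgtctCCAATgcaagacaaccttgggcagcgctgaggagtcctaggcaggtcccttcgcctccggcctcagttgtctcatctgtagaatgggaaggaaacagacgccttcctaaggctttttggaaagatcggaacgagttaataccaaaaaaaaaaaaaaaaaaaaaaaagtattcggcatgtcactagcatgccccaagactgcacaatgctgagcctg
The first window held a CCAAT match on the opposite strand, starting at position -30 from the start site. The middle window held none, and the last window held a match at -166.

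The table held 9 windows for 6 of the 10 genes (Srebf1, Acaca, Acacb, Fasn, Elovl6 and Gpam). CCAAT was found in 5 of the 9 windows, from Srebf1, Fasn, Acacb and Gpam, beside 37.4% of the 32851 windows of all genes. The sterol element was found in 0 of the 9 windows and in 1.24% of all windows, and the E-box in 0 of the 9 and in 7.15% of all. Such matches describe letters in these windows and are not evidence of binding. The windows of Fasn and Elovl6, the synthase and the elongase, are printed to set side by side the pair of these 10 genes with the highest Pearson correlation over the 16 arrays, a value that rests on 2 of them, as given with the correlations.
Fasn, chr11:120824498-120824797, minus strand: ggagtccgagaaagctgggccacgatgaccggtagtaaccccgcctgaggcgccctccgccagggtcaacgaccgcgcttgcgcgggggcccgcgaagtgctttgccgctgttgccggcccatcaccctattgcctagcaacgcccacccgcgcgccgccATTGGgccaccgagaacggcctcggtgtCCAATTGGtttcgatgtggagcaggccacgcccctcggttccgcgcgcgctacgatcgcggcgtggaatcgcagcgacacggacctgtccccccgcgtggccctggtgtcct
Elovl6, chr3:129532136-129532435, plus strand: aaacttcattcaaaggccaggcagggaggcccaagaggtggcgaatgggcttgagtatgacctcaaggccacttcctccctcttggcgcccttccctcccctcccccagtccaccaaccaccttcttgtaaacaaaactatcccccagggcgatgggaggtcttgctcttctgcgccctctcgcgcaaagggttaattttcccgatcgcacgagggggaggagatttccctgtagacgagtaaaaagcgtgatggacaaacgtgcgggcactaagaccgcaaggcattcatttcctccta
The Fasn window held CCAAT matches starting at -90, -62 and -59, the last 2 of which overlap as the palindrome in capitals nearest the start. The Elovl6 window held none of the motifs searched.

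**Figure D1:**
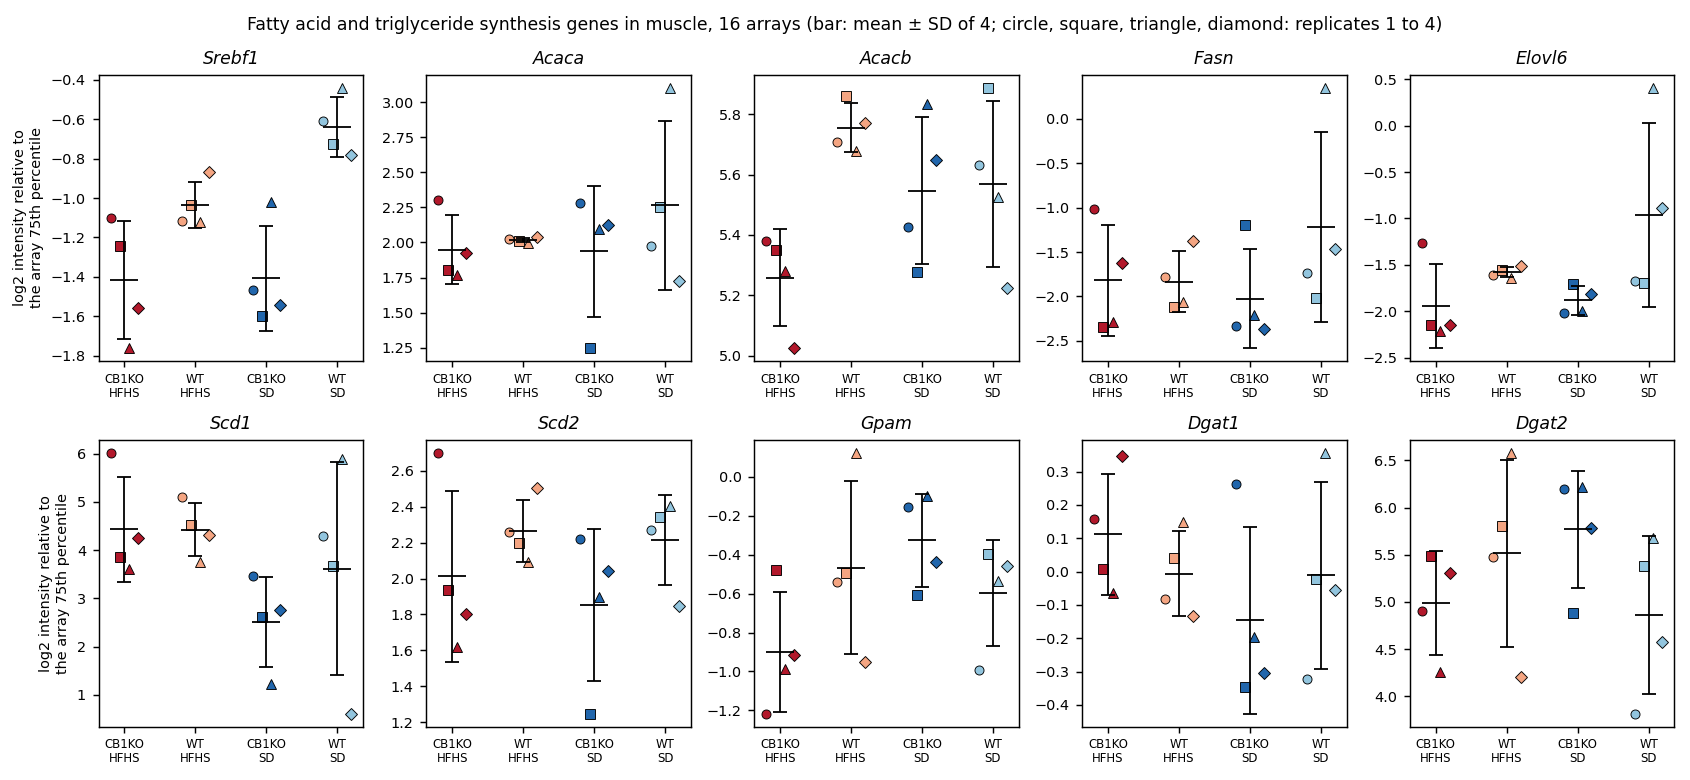
Log2 intensity relative to the array's 75th percentile (vertical axis) of the 10 genes in the 4 groups (horizontal axis), 1 point per array, with the mean and SD of 4 arrays; the marker shape gives the replicate number. Srebf1 lies lower in CB1KO_SD than in WT_SD with no overlap, and WT_SD replicate 3 is the highest array of its group for each gene but Acacb and Gpam.

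Srebf1, the regulator, measured -1.10, -1.24, -1.76 and -1.56 in CB1KO_HFHS muscle (replicates 1 to 4, the order used throughout), against -1.12, -1.03, -1.12 and -0.87 in WT_HFHS muscle. Its levels on SD were -1.47, -1.60, -1.02 and -1.55 in CB1KO muscle, against -0.61, -0.73, -0.44 and -0.78 in WT muscle. The SD groups did not overlap. On HFHS, CB1KO replicate 1 lay among the WT arrays and the other 3 CB1KO arrays below them all. The groups averaged -1.42 ± 0.30 in CB1KO_HFHS, -1.04 ± 0.12 in WT_HFHS, -1.41 ± 0.26 in CB1KO_SD and -0.64 ± 0.15 in WT_SD (SD, n = 4 each).

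Averaged over diets, Srebf1 fell by 0.57 ± 0.12 (SE) on the log2 scale in CB1KO muscle, with a 95% confidence interval of -0.83 to -0.32, a fold of 0.672 and an adjusted p of 0.0408 by limma. Among all genes tested, 0.763% passed in this comparison and 0.452% passed with a lower level in CB1KO. The genotypes differed by -0.38 ± 0.17 on HFHS and by -0.77 ± 0.17 on SD, with limma adjusted p-values of 0.491 and 0.208. The exact permutation p was 0.0857 on HFHS and 0.0286 on SD, the smallest that 4 arrays against 4 can give. The interaction of genotype and diet was 0.39 ± 0.23, so the difference on HFHS was not shown to be smaller than that on SD (limma adjusted p = 1.00). The p-values measure the spread between these animals, and in whole muscle fewer cells of a type and less RNA per cell cannot be told apart.

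The Srebf1 call lies close to the threshold and is lost without any of 13 of the 16 arrays. Without CB1KO_HFHS replicate 2, 3 or 4 limma's adjusted p was 0.0565, 0.0862 or 0.0920, and without 1 of the WT_HFHS arrays, replicates 1 to 4, it was 0.0734, 0.0900, 0.0559 and 0.0988. Without CB1KO_SD replicate 1 or 4 it was 0.0808 or 0.0862, and without 1 of the WT_SD arrays, replicates 1 to 4, it was 0.0913, 0.0551, 0.0897 and 0.0526. The call held without CB1KO_HFHS replicate 1 (adjusted p = 0.0237) and without CB1KO_SD replicate 2 or 3. The difference itself stayed between -0.64 and -0.52 with any 1 array left out.

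Acetyl-CoA carboxylase has a cytosolic form, encoded by Acaca, which feeds fatty acid synthesis, and a form at the outer mitochondrial membrane, encoded by Acacb, whose malonyl-CoA restrains the entry of fatty acids into mitochondria and which is the main form in muscle. Acacb measured 5.38, 5.35, 5.28 and 5.02 in CB1KO_HFHS muscle, against 5.71, 5.86, 5.68 and 5.77 in WT_HFHS muscle. On the standard diet it measured 5.43, 5.28, 5.83 and 5.65 in CB1KO muscle, against 5.63, 5.89, 5.53 and 5.23 in WT muscle. On HFHS every CB1KO array lay below every WT array, while on SD the genotypes overlapped.

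The Acacb difference on HFHS was -0.50 ± 0.16 (SE), which missed the threshold across all genes (limma adjusted p = 0.289), with an exact permutation p of 0.0286. It was the 1 gene of the 10 whose HFHS groups did not overlap, and 6.93% of all genes tested were lower in CB1KO without overlap on that diet. Averaged over diets it differed by -0.26 ± 0.11 (limma adjusted p = 0.290). Its interaction was -0.48 ± 0.22, with a limma p of 0.0491 before adjustment and 1.00 after it. Of all genes, 0% passed the interaction test and 3.63% had an unadjusted p under 0.05 in it. A second Acacb probe differed by -0.28 ± 0.20 on HFHS, in the same direction (limma adjusted p = 0.716, over all probes). Averaged over diets that probe differed by -0.11 ± 0.14.

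Acaca measured 2.30, 1.80, 1.77 and 1.92 in CB1KO_HFHS muscle, against 2.02, 2.01, 1.9998 and 2.04 in WT_HFHS muscle. On SD it measured 2.28, 1.25, 2.10 and 2.12 in CB1KO muscle, against 1.98, 2.25, 3.11 and 1.72 in WT muscle. The genotypes overlapped on both diets. The SD difference was -0.33 ± 0.27 (limma adjusted p = 0.806) and was -0.10 without CB1KO_SD replicate 2, -0.05 without WT_SD replicate 3, the highest array, and -0.51 without WT_SD replicate 4. Its 2 other probes were dim, above background on 9 and 11 arrays, and averaged over diets they differed by -0.60 and 0.04, beside -0.20 for the probe used.

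Fasn, fatty acid synthase, measured -1.01, -2.34, -2.29 and -1.63 in CB1KO_HFHS muscle, against -1.78, -2.12, -2.07 and -1.37 in WT_HFHS muscle. Its levels on SD were -2.33, -1.19, -2.20 and -2.37 in CB1KO muscle, against -1.74, -2.02, 0.35 and -1.47 in WT muscle. The genotypes overlapped on both diets, and WT_SD replicate 3 stood above all other arrays. The SD difference was -0.81 ± 0.47 (limma adjusted p = 0.669), and without WT_SD replicate 3 it was -0.28. Averaged over diets it was -0.39 ± 0.33, and -0.13 without that array.

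Elovl6, which lengthens palmitate to stearate, measured -1.26, -2.15, -2.22 and -2.15 in CB1KO_HFHS muscle, against -1.61, -1.56, -1.64 and -1.52 in WT_HFHS muscle. On the standard diet it measured -2.02, -1.70, -2.0005 and -1.81 in CB1KO muscle, against -1.68, -1.70, 0.41 and -0.89 in WT muscle. On HFHS, 3 CB1KO arrays lay below all WT arrays and CB1KO replicate 1 above them. On SD the groups did not overlap, but the highest CB1KO array and the lowest WT array shared the value -1.70 to 2 decimals.

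The SD difference of Elovl6 was -0.92 ± 0.37 (SE), with a limma adjusted p of 0.485 and an exact permutation p of 0.0286. Srebf1 and Elovl6 were the 2 of the 10 genes lower in CB1KO without overlap on SD, where 3.18% of all genes tested were. Elovl6 differed by -0.36 ± 0.37 on HFHS and by -0.64 ± 0.26 averaged over diets (limma adjusted p = 0.272). Without CB1KO_HFHS replicate 1 the HFHS difference was -0.59, and without WT_SD replicate 3 the SD difference was -0.46 and the averaged one -0.41.

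Scd1 and Scd2 encode stearoyl-CoA desaturases, which place the first double bond in palmitate and stearate. Scd1, the main form in liver and fat, measured 6.02, 3.86, 3.60 and 4.25 in CB1KO_HFHS muscle, against 5.10, 4.52, 3.76 and 4.32 in WT_HFHS muscle. On SD it measured 3.46, 2.62, 1.22 and 2.76 in CB1KO muscle, against 4.28, 3.67, 5.89 and 0.61 in WT muscle. The genotypes overlapped on both diets, and the WT_SD arrays held both the lowest level and nearly the highest.

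Scd1 was the most variable of the 10 genes, with a range of 5.40 over the 16 arrays, and 97.0% of genes tested had a smaller SD within groups. The genotype difference was -1.10 ± 0.89 on SD (limma adjusted p = 0.798) and -0.55 ± 0.63 averaged over diets. The SD difference was -0.67 without CB1KO_SD replicate 3, -0.34 without WT_SD replicate 3 and -2.10 without WT_SD replicate 4, and the averaged one was -0.33, -0.17 and -1.05.

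Scd2, the form that prevails in the brain of mice, measured 2.70, 1.94, 1.62 and 1.80 in CB1KO_HFHS muscle, against 2.26, 2.20, 2.09 and 2.50 in WT_HFHS muscle. Its levels on SD were 2.22, 1.25, 1.90 and 2.04 in CB1KO muscle, against 2.27, 2.34, 2.40 and 1.85 in WT muscle. The groups overlapped on each diet. The differences were -0.25 ± 0.25 on HFHS, -0.36 ± 0.25 on SD and -0.31 ± 0.17 averaged over diets (limma adjusted p = 0.760, 0.733 and 0.425). The HFHS difference was -0.48 without CB1KO_HFHS replicate 1 and -0.12 without CB1KO_HFHS replicate 3, and the SD one was -0.16 without CB1KO_SD replicate 2.

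Gpam encodes the mitochondrial glycerol-3-phosphate acyltransferase, which attaches the first acyl chain to glycerol-3-phosphate. It measured -1.22, -0.48, -0.99 and -0.91 in CB1KO_HFHS muscle, against -0.54, -0.49, 0.12 and -0.95 in WT_HFHS muscle. On the standard diet it measured -0.16, -0.61, -0.10 and -0.44 in CB1KO muscle, against -0.99, -0.40, -0.53 and -0.46 in WT muscle. The genotypes overlapped on both diets, with the lower mean in CB1KO on HFHS and the higher mean in CB1KO on SD. The differences were -0.43 ± 0.23 on HFHS and 0.27 ± 0.23 on SD, and the interaction was -0.70 ± 0.32, with a limma p of 0.0468 before adjustment and 1.00 after it. Without WT_HFHS replicate 3 the HFHS difference was -0.24, and without WT_SD replicate 1 the SD one was 0.14.

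Dgat1 and Dgat2 encode unrelated enzymes that both add the last acyl chain to make triglyceride. Dgat2 measured 4.90, 5.49, 4.25 and 5.30 in CB1KO_HFHS muscle, against 5.48, 5.80, 6.58 and 4.20 in WT_HFHS muscle. On SD it measured 6.19, 4.89, 6.21 and 5.78 in CB1KO muscle, against 3.82, 5.38, 5.67 and 4.58 in WT muscle. The differences were -0.53 ± 0.51 on HFHS and 0.91 ± 0.51 on SD (limma adjusted p = 0.758 and 0.656), and the interaction was -1.43 ± 0.72. The HFHS difference was -0.28 without CB1KO_HFHS replicate 3, -0.17 without WT_HFHS replicate 3 and -0.97 without WT_HFHS replicate 4, and the SD one was 0.56 without WT_SD replicate 1. Its genotype difference, like that of Gpam, was negative on HFHS and positive on SD, and neither gene's interaction passed.

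Dgat1 lay between -0.06 and 0.35 in CB1KO_HFHS muscle, between -0.13 and 0.15 in WT_HFHS muscle, between -0.35 and 0.26 in CB1KO_SD muscle and between -0.32 and 0.36 in WT_SD muscle. It was the gene of the 10 with the narrowest range of levels. Of the genotype differences not yet given, those of Fasn, Scd1, Acaca and Dgat1 on HFHS ran from -0.07 to 0.12, and those of Acacb and Dgat1 on SD from -0.13 to -0.02. The median difference of the 10 genes was -0.31 on HFHS and -0.35 on SD, beside -0.14 and -0.12 over all genes tested. None of the 10 passed on either diet alone, where 0.249% of all genes passed on HFHS and 0.00345% on SD.

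**Figure D2:**
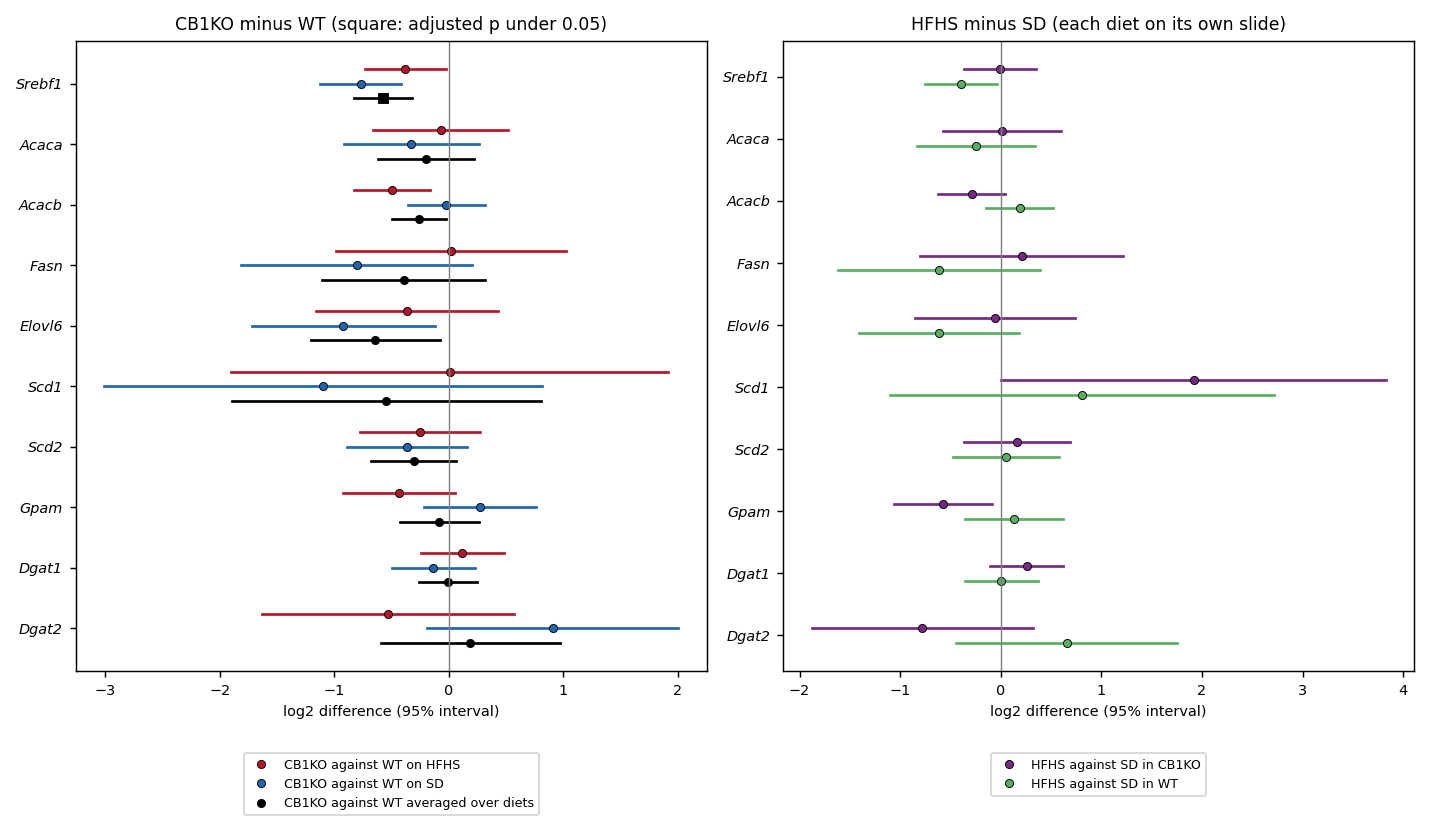
Differences of the 10 genes in log2 intensity (horizontal axis) with 95% confidence intervals from the limma fit, for CB1KO minus WT on each diet and averaged over diets and for HFHS minus SD in each genotype. The averaged interval of Srebf1, from -0.83 to -0.32, lies below 0, and those of Scd1 are the widest.

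Between diets, none of the 10 genes passed in either genotype, where 0.0276% of all genes passed in CB1KO and 0% in WT by limma. At an unadjusted p under 0.05, 9.59% of all genes in CB1KO and 6.07% in WT differed. The diet comparisons in CB1KO and in WT carry the slide with them.

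In CB1KO muscle, every HFHS array had more Scd1 than every SD array, with a difference of 1.92 ± 0.89 (SE), a 95% interval of 0.0063 to 3.83, a limma adjusted p of 0.521 and an exact permutation p of 0.0286. It was the 1 gene of the 10 higher on HFHS without overlap in CB1KO, as were 2.48% of all genes. Without CB1KO_HFHS replicate 1 the difference was 1.39. In WT muscle it was 0.81 ± 0.89, or 1.57 without WT_SD replicate 3 and -0.19 without WT_SD replicate 4.

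In WT muscle, every HFHS array had less Srebf1 than every SD array, with a difference of -0.40 ± 0.17, a limma adjusted p of 0.779 and an exact permutation p of 0.0286. It was the 1 gene of the 10 lower on HFHS without overlap in WT, as were 3.36% of all genes. The diet differences in WT were -0.62 ± 0.37 for Elovl6 and -0.62 ± 0.47 for Fasn, and without WT_SD replicate 3 they were -0.16 and -0.09. Dgat2 differed between diets by -0.78 ± 0.51 in CB1KO and by 0.65 ± 0.51 in WT. The WT value was 0.30 without WT_HFHS replicate 3, 1.09 without WT_HFHS replicate 4 and 0.31 without WT_SD replicate 1. In CB1KO muscle, Gpam differed by -0.57 ± 0.23 (limma adjusted p = 0.429, exact permutation p = 0.0571), Acacb by -0.29 ± 0.16 and Dgat1 by 0.26 ± 0.17, or 0.39 without CB1KO_SD replicate 1.

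Genes that share their course over the 16 arrays with each of the 10 were sought by Pearson correlation. The search covered the genes tested that had a symbol and a value on every array. Those given are the highest found. They are descriptions of 16 arrays that share slides and diets. For Scd1 they were Plin1 (r = 0.972), which coats the lipid droplet of adipocytes, Apoc1 (0.972) and Prkar2b (0.969). Within the HFHS slide and within the SD slide, Scd1 and Plin1 correlated at 0.966 and 0.983 (8 arrays each), and at 0.937 over the 14 arrays left without WT_SD replicate 4 and CB1KO_SD replicate 3. Scd1 also correlated with the adipokine gene Adipoq at 0.947 and with the droplet protein gene Cidec at 0.947.

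**Figure D3:**
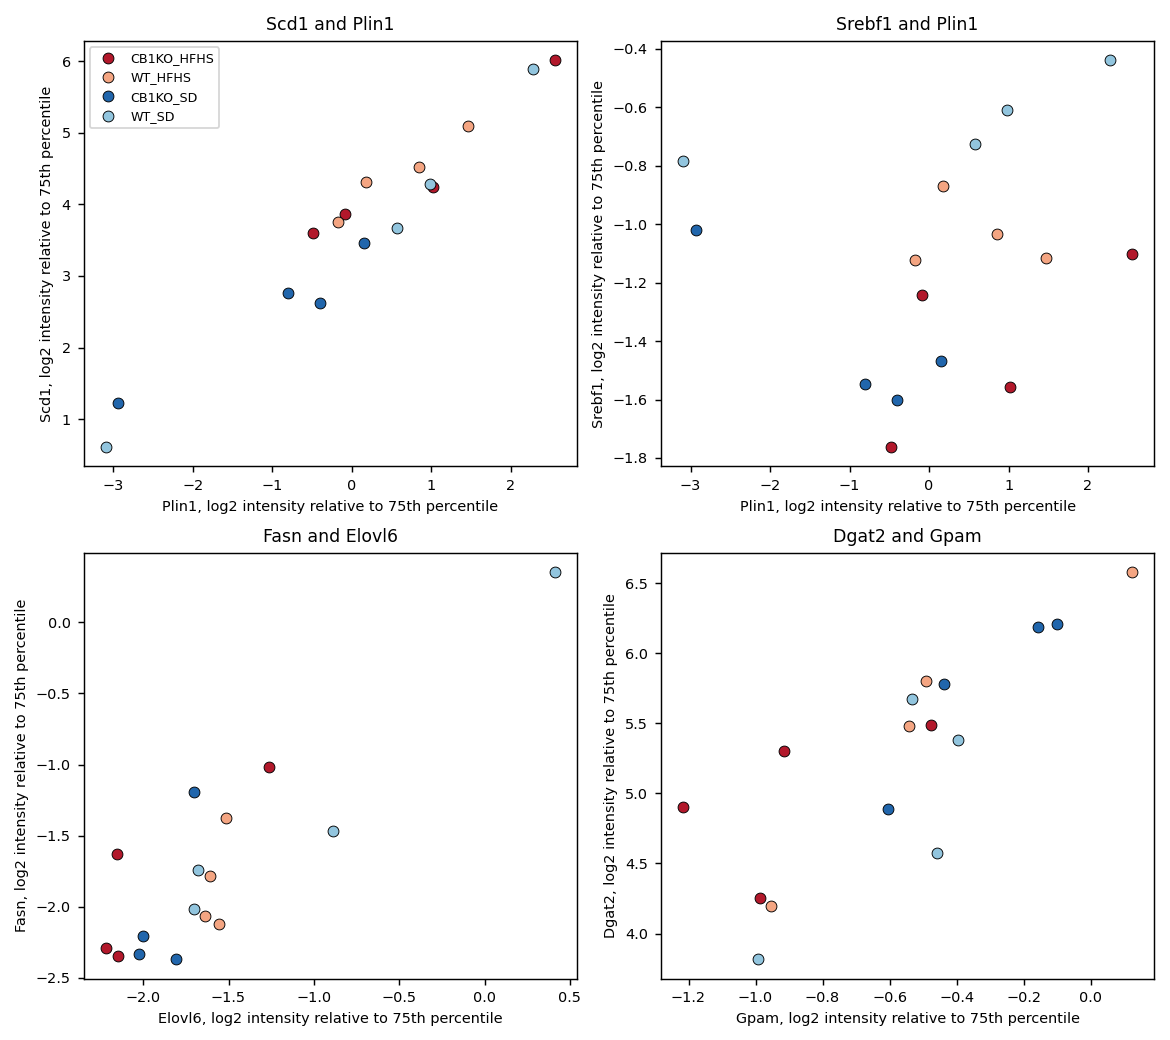
Levels of pairs of genes on the 16 arrays, both axes in log2 intensity relative to the array's 75th percentile, 1 point per array coloured by group. Scd1 and Plin1 lie along a line (r = 0.972), Srebf1 and Plin1 do not (r = 0.166), and the pair of Fasn and Elovl6 is stretched by WT_SD replicate 3.

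Srebf1 correlated with Plin1 at 0.166, with Adipoq at 0.067 and with Cidec at 0.060. Within the HFHS slide and within the SD slide, Srebf1 and Plin1 correlated at 0.294 and 0.293. Without WT_SD replicate 3 and CB1KO_HFHS replicate 3 the value was -0.059. Over the 12 adipocyte markers the correlation of Srebf1 ran from -0.128 (Lep) to 0.556 (Fabp4, the fatty acid carrier of adipocytes, which correlated with Scd1 at 0.541). The genes nearest to Srebf1 were Ddrgk1 (0.922), Spag5 (0.918) and Ccdc6 (0.914). Fasn was nearest to Elovl6 (0.869, Spearman's rho 0.668), with r = 0.541 without CB1KO_HFHS replicate 1 and WT_SD replicate 3. Dgat2 was nearest to Adig (0.937), Paqr9 (0.935) and Tmem120b (0.933), and correlated with Plin1 at -0.071. Gpam was nearest to Fndc5 (0.945), the precursor gene of irisin, and Dgat2 and Gpam correlated with each other at 0.816 (rho 0.797), with 0.780 without WT_HFHS replicate 4 and WT_SD replicate 1. Acacb was nearest to Cracd (0.929) and to Ndufv3 (0.927), a subunit gene of respiratory complex I.

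The 12 adipocyte markers correlated with Scd1 to unequal degrees. The correlation ran from 0.794 to 0.972 for 8 of them (Adipoq, Adrb3, Cidec, Lep, Plin1, Retn, Slc7a10 and Trarg1), and was 0.703 for Cfd, 0.639 for Pparg, 0.541 for Fabp4 and 0.123 for Cidea. Plin1 measured 2.55, -0.09, -0.48 and 1.02 in CB1KO_HFHS muscle, against 1.47, 0.85, -0.18 and 0.18 in WT_HFHS muscle. Its levels on SD were 0.15, -0.41, -2.94 and -0.80 in CB1KO muscle, against 0.98, 0.57, 2.28 and -3.09 in WT muscle. WT_SD replicate 4 and CB1KO_SD replicate 3 were the lowest arrays for Plin1 as for Scd1, and CB1KO_HFHS replicate 1 and WT_SD replicate 3 the highest for both. These last arrays were also the highest of their groups for Fasn, Elovl6, Acaca, Scd2 and Srebf1. WT_SD replicate 4 was the lowest of its group for Plin1, Acaca, Scd2 and Srebf1, and the next highest after replicate 3 for Fasn and Elovl6. CB1KO_SD replicate 3 was the lowest of its group for Plin1 and the highest for Srebf1.

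The summed level of 12 adipocyte markers (linear intensity, with 1 at the array's 75th percentile) ran from 151 to 389 in CB1KO_HFHS muscle and from 178 to 276 in WT_HFHS muscle. On SD it ran from 164 to 229 in CB1KO muscle and from 174 to 504 in WT muscle. This sum weighs the brightest marker, Fabp4, most, and does not show the wider spread of dimmer markers. Fabp4 measured 7.37 in WT_SD replicate 4 and 7.26 in CB1KO_SD replicate 3. On these arrays Adipoq measured -0.86 and -1.19, its lowest levels, against 5.49 in CB1KO_HFHS replicate 1. Of the 12 markers, 9 were above background on all 16 arrays, and Adrb3, Lep and Slc7a10 on 14 or 15. Their median difference of CB1KO minus WT was 0.26 on HFHS, with 8 of 12 above 0, and -0.93 on SD, with 10 of 12 below 0. Averaged over diets, the comparison in which Srebf1 passed, 11 of the 12 lay below 0. Their median there was -0.28, beside -0.28 for the 10 genes and -0.13 over all genes. Between diets the median of the 12 markers was 1.34 in CB1KO, with 10 of 12 higher on HFHS, and 0.27 in WT, with 9 of 12. By limma 0 of the 12 passed in any of the 6 comparisons. WT_SD replicate 3, at 504, also had Cidea, a droplet protein gene of brown fat, at 4.33, where the other 15 arrays lay between -1.18 and 2.09. The part of adipocyte RNA in the values of the 10 genes was not tested.

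**Figure D4:**
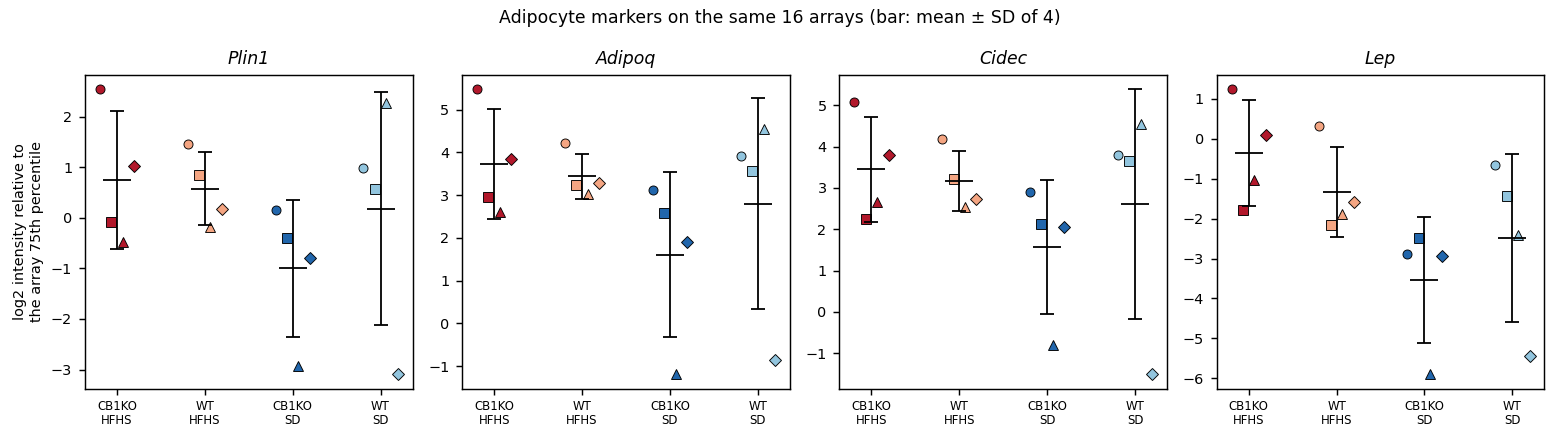
Log2 intensity relative to the array's 75th percentile (vertical axes) of 4 adipocyte marker genes in the 4 groups, 1 point per array, with the mean and SD of 4 arrays and the marker shape giving the replicate number. Plin1 is highest in CB1KO_HFHS replicate 1 (2.55) and lowest in WT_SD replicate 4 (-3.09), and Adipoq, Cidec and Lep spread widely within the SD groups.

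The summed level of 10 skeletal muscle markers ran from 3365 to 6135 in CB1KO_HFHS muscle, from 3679 to 5427 in WT_HFHS muscle, from 4235 to 6756 in CB1KO_SD muscle and from 4872 to 5983 in WT_SD muscle. Each of the 10, such as Acta1 and Ckm, stood above background on all 16 arrays. The sum of 8 slow-twitch fibre markers ran from 36.7 to 608 in CB1KO_HFHS muscle and from 29.2 to 895 in WT_HFHS muscle. On SD it ran from 284 to 750 in CB1KO muscle and from 19.7 to 220 in WT muscle, without overlap, as for Srebf1 and Elovl6 on that diet. The sum weighs the brightest markers most, and not each of the 8 was without overlap by itself. All 8 had the higher mean in CB1KO on SD, with a median difference of 2.76, and 0 of the 8 passed by limma. On HFHS 5 of the 8 lay above 0 and 3 below, with a median of 0.09. Averaged over diets all 8 lay above 0, with a median of 1.03. The part of fibre type in the differences of the 10 genes was not tested.

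The sum of 8 macrophage markers ran from 24.6 to 66.5 in CB1KO_HFHS muscle and from 15.9 to 34.98 in WT_HFHS muscle, and on SD from 14.9 to 36.1 in CB1KO muscle and from 15.4 to 42.8 in WT muscle. All 8 had the higher mean in CB1KO on HFHS, the diet on which Acacb lay lower without overlap, with a median difference of 0.69, and 5 of 8 did on SD, with a median of 0.07. The sum of 10 Schwann cell markers ran from 12.6 to 21.1 in CB1KO_HFHS muscle and from 18.6 to 26.0 in WT_HFHS muscle, and on SD from 15.5 to 27.5 in CB1KO muscle and from 15.5 to 27.0 in WT muscle. On HFHS 9 of the 10 had the lower mean in CB1KO, with a median difference of -0.42, and on SD 7 of 10, with a median of -0.31. Averaged over diets, the comparison in which Srebf1 passed, 8 of 8 macrophage markers lay above 0 and 9 of 10 Schwann cell markers below it, with medians of 0.34 and -0.30, beside -0.13 over all genes. By limma 0 of the 8 and 0 of the 10 passed in any comparison, and their part in the results was not tested.

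Around the 10 genes, 4 lists of other genes of the pathway held 0 members that passed in any of the 6 comparisons by limma. Among 18 regulators, 4 had an unadjusted p under 0.05 for CB1KO against WT averaged over diets, 3 of them lower and 1 higher. Srebf2, the relative of Srebf1 that drives cholesterol synthesis, differed by 0.82 ± 0.33 (limma adjusted p = 0.273), opposite in sign to Srebf1. Trib3, a pseudokinase that restrains insulin signalling in liver, differed by -0.51 ± 0.15 (0.129), and Rxra, the partner of LXR on the Srebf1 promoter, by -0.31 ± 0.13 (0.297).

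Among 12 genes that supply acetyl-CoA, malonyl-CoA and NADPH, 1 had an unadjusted p under 0.05 averaged over diets: Me1, the cytosolic malic enzyme, which yields NADPH, differed by -0.60 ± 0.19 (limma adjusted p = 0.152). Next by p were Oxsm, a synthase of mitochondrial fatty acid synthesis, at -0.20 ± 0.10 (0.399) and Pgd, which also yields NADPH, at 0.53 ± 0.38 (0.525). Among 15 other genes of elongation and desaturation, 4 did, all lower in CB1KO, including Hacd1, a dehydratase of the elongation cycle in muscle, at -0.61 ± 0.16 (0.102), Scd3, a further desaturase, at -0.26 ± 0.09 (0.192) and Elovl7, an elongase, at -1.64 ± 0.57 (0.198). Elovl7 stood well above background on 4 of 4 CB1KO_HFHS arrays, 2 of 4 CB1KO_SD arrays and 8 of 8 WT arrays, so the size of its difference rests in part on values near background. Among 18 other genes of glycerolipid assembly, 3 were lower and 1 was higher. Lpin3, a phosphatidate phosphatase, differed by 0.63 ± 0.14 (0.0630), Acsl4, an acyl-CoA synthetase, by -0.58 ± 0.17 (0.128), and Agpat1, which adds the next acyl chain after the first, by -0.22 ± 0.07 (0.178). In the same comparison 15% of all genes tested had an unadjusted p under 0.05, and the lists' medians ran from -0.20 to -0.08, beside -0.13 over all genes.

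Between diets, Rxra differed by -0.86 ± 0.19 in CB1KO (limma adjusted p = 0.132) and by -0.47 ± 0.19 in WT (0.762). G6pdx, the first enzyme of the pentose phosphate route to NADPH, differed by 0.95 ± 0.31 in CB1KO (0.301), and Slc25a1, the mitochondrial citrate carrier, by 0.90 ± 0.37 (0.458). The LXR gene Nr1h3 differed by 0.35 ± 0.13 in CB1KO (0.412), Fads3, a desaturase relative, by 0.95 ± 0.42 (0.505), Acsl1, an acyl-CoA synthetase, by -0.57 ± 0.27 (0.526) and Agpat3 by -0.38 ± 0.18 (0.543). The elongase gene Elovl5 differed by 0.36 ± 0.18 in CB1KO (0.541) and by 0.41 ± 0.18 in WT (0.799).

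In WT, Usf2, an E-box factor, differed between diets by -0.38 ± 0.12 (limma adjusted p = 0.648), the acetyl-CoA synthetase gene Acss2 by 0.57 ± 0.26 (0.820) and the malonyl-CoA decarboxylase gene Mlycd by 0.24 ± 0.17 (0.958). Tecr, a reductase of the elongation cycle, differed by -0.38 ± 0.19 in WT (0.886), Agpat2 by 0.60 ± 0.37 (0.930) and Gpd1, the cytosolic glycerol-3-phosphate dehydrogenase, by -0.27 ± 0.17 (0.930). None of these passed in either genotype.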

How the data were processed

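Intensities came from scanner files that were made with Feature Extraction 11.5.1.1, per the file headers: a processed intensity for each spot, corrected for background and not scaled between arrays. The authors' deposited series table gives each spot a score, which equalled the log2 processed intensity scaled to mean 0 and SD 1 within each array, to within 0.005. It served as an alternative. Each log2 processed intensity was set relative to the array's 75th percentile, outlier spots were set to missing, and repeated spots averaged. Probes were named through RefSeq accessions, and about 27660 probes without a symbol kept the identifier in the file as their gene. A probe was kept if 4 or more of the 16 arrays showed it well above background, and a gene took its brightest kept probe. The genes tested therefore include such identifiers, and several can belong to 1 gene. The 4 group means were estimated together by limma 3.58.1 in R 4.3.3, with two-sided tests and Benjamini-Hochberg adjustment over all 28967 genes (threshold 0.05), and was tested on simulated data. Single values were compared by exact permutation tests. The number of arrays limits the precision. The interaction is the HFHS difference (CB1KO minus WT) minus the SD one.

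Same-numbered arrays of different groups correlated at -0.754 to 0.609 after removal of group means, and differently numbered ones at -0.699 to 0.661. The medians were -4.8e-05 and -0.012, so the replicate numbers were not taken to pair samples. The 10 genes, the gene lists and the alternatives were chosen with earlier results of these data known. From each pathway list, the 3 genes of lowest p averaged over diets and the 2 of lowest p in each diet comparison were named, and cell and fibre markers were given as sums, counts and medians with the defining ones by name. Also, up to 3 most correlated genes were named for each of the 10 genes. Promoter windows are RefSeq's on GRCm38.p6. The background, normalization, filter, weights, blocks and left-out arrays were varied as alternatives.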

Additional observations from a re-analysis of the deposited data

Results flagged for a closer look

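In 40 groups of 4 arrays (10 genes in 4 groups), the highest and lowest array was set against the others by Dixon's 95% critical value for the gap as a share of the range. Elovl6 in CB1KO_HFHS replicate 1 measured -1.26, where the other 3 arrays lay between -2.22 and -2.15 (gap share 0.925). This array also had the highest SD of log2 signal, 3.97. Fasn in CB1KO_SD replicate 2 measured -1.19, where the other 3 arrays lay between -2.37 and -2.20 (gap share 0.861). This array also had the lowest SD of log2 signal, 2.89. Chance flags about 1 in 20 groups.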

How the results depend on the processing

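The Srebf1 difference averaged over diets kept its sign under each of the 13 alternatives (-0.64 to -0.49) and under each of the 16 fits without 1 array (-0.64 to -0.52). Its limma adjusted p passed with probes averaged per gene (0.0380), outlier spots retained (0.0408), detection required on all 16 arrays (0.0216), trend and robust variances (0.0309), array weights (0.00579), a covariate for each array's signal spread, called the SD covariate below (0.00996), both arrays of extreme signal spread left out (0.0234) and the slide as a block (0.0496). With normexp and quantile normalization its limma adjusted p was 0.0781, with quantile normalization 0.115, with the deposited z-scores 0.350 and with no filter 0.0638. With the replicate number, which is also the slide column, as a block it was 0.108. The count of the 10 genes passing was 0 under each of these alternatives. The cause was not tested. Array weights called 2 of the 10 averaged over diets (Srebf1 and Elovl6, Elovl6 at -0.98) and 2 on HFHS (Acacb at -0.56, Srebf1 at -0.51), and the SD covariate called 1 on SD (Srebf1, -0.78). Of the differences given one by one, Scd1 between diets in WT changed sign, with -0.19 to 1.57 when 1 array was left out (without WT_SD replicate 4 and without WT_SD replicate 3). Of all 60 differences of the 10 genes, 19 changed sign under some alternative, and none of these passed. The median of all genes, -0.13 averaged over diets, was -0.02 with normexp and quantile normalization, -0.04 with quantile normalization and -0.04 with z-scores, and the 10 genes' median was -0.24, -0.20 and -0.24.

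Counts over all genes moved more. Without 1 array they ran from 15 to 134 on HFHS, 0 to 12 on SD, 59 to 610 averaged, 0 to 11 for the interaction, 0 to 28 between diets in CB1KO and 0 to 1 in WT, and the count of the 10 genes from 0 to 1 averaged. For CB1KO against WT on HFHS (72 genes), the count was 119 with normexp, 110 with trend, 2124 with array weights, 36 with the replicate block, 345 with the SD covariate, 190 without both arrays and 41 with the 2 groups alone. On SD (1) it was 24 with normexp, 23 with quantile, 25 with z-scores, 7 with the filter on all arrays, 4 with the mean of probes, 6 with trend, 48 with array weights, 148 with the SD covariate, 227 without both arrays of extreme spread and 0 with the 2 groups alone. Averaged (221) it was 369 with normexp, 359 with quantile, 133 with no filter, 350 with trend, 1982 with array weights, 59 with the replicate block, 1734 with the SD covariate and 870 without both arrays. The interaction (0) gave 1 with normexp and 10 without both arrays. The diet difference in CB1KO (8) gave 17 with normexp, 2 with quantile, 3 with z-scores, 4 with no filter, 14 with the filter on all arrays, 3 with the mean of probes, 1 with trend, 137 with array weights, 0 with the replicate block, 15 with the SD covariate, 23 without both arrays and 0 with the 2 groups alone. The diet difference in WT (0) gave 91 with array weights and 1 without both arrays. Same-numbered arrays did not all deviate together, so the numbers were not read as pairs.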
